A study of Mus musculus with 9 samples.

Results

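Genes that move, store and sense iron were examined in primary mouse microglia that had been given medium conditioned by human glioma cells. The members were chosen by symbol, with earlier results of these data known. They were Slc40a1, Tfrc, Slc11a1 and Slc11a2 for transport, Fth1 and Ftl1 for storage, and Hmox1 for haem breakdown. Aco1, Ireb2 and Bach1 were included for iron and haem sensing. Of these 10 genes, 8 were measured by 13 probe sets that carry a single gene symbol, out of 17097 genes in the array table. Every probe set of a gene is described, and the brightest over the 9 arrays stands for the gene. Slc11a2, the divalent metal transporter, was covered by probe sets shared with a second gene symbol, and Ireb2, the second iron regulatory protein, had no probe set named here, so both were not analysed here.

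The microglia were prepared from the cortices of C57BL/6J pups at P0-P2 and were cultured in DMEM with serum. The 9 Affymetrix mouse arrays held 3 of microglia given glioma-conditioned medium (GCM) from LN18 cells for 6 h, 3 of microglia given GCM from U87-MG cells for 6 h, and 3 of untreated control microglia taken at 6 h. LN18 and U87-MG are established human glioblastoma cell lines, and their GCM is culture medium in which those cells had grown. The sources do not say whether control cells also received a change of medium, so an effect of the change itself and an effect of glioma products cannot be told apart. The paper states in general that experiments were repeated on independent passages or cultures. For the arrays it gives only n = 3, and the labels give only replicate numbers. All values are deposited log2 signals, in which a difference of 1 is a 2-fold difference. They ran between 1.56 and 12.88 over all probe sets, with array medians of 3.39 to 3.41.

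Iron enters most cells bound to transferrin through the transferrin receptor, is kept harmless inside ferritin shells, and leaves through ferroportin, the product of Slc40a1 and the only iron exporter known in mammals. Macrophage lineage cells, microglia included, also draw iron from swallowed haem, which haem oxygenase 1 opens. Iron regulatory proteins bind hairpins called iron responsive elements in the mRNAs of ferritin, ferroportin and the transferrin receptor, and so set translation or mRNA stability. At the gene itself the repressor Bach1 and the activator Nrf2 compete for antioxidant response elements, and haem releases the repressor.

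Of 9 measured microglia markers, 7 lay above the median gene level of 4.34, and their mean over the list ran from 8.83 to 8.86 in GCM LN18 arrays, from 8.67 to 8.86 in GCM U87-MG arrays and from 8.34 to 8.50 in control arrays. The 9 ranged from 3.65 to 11.31, and 2 that define adult microglia were dim, with Tmem119 at a mean of 4.79 in GCM LN18, 4.18 in GCM U87-MG and 3.88 in control arrays, and P2ry12 at 3.81, 3.71 and 3.44 in the same order of groups. Changes were tested with limma, a linear model fitted across all genes, and a gene passed the test at a Benjamini-Hochberg adjusted p under 0.05. By this 5 of the 9 markers were higher in GCM LN18, beside 5.23% of all genes in either direction, and 2 were higher for GCM U87-MG, beside 1.51%. With the replicate number as a block in the model, for a reason given with Slc40a1, these counts were 2 and 1, beside 0.877% and 0.0468%. All measured markers of neurons, astrocytes and fibroblasts lay below that median in the mean of the 9 arrays. Of the other types, 1 of 3 oligodendrocyte lineage markers (Sox10, at 5.15), 1 of 4 endothelial markers (Kdr, 5.25) and 1 of 3 erythroid markers (Hba-a1, 4.48) lay above it, and none of these lists had a member past the test. Of 4 markers of border macrophages and monocytes, Mrc1, the mannose receptor, was bright at 9.07, and Lyve1, Cd163 and Ccr2 were below the median. Mrc1 fell by 0.25 in GCM LN18 (limma adjusted p = 0.0375, not past the test with the block) and its change was -0.27 in GCM U87-MG (0.0559). The mean of these 4 markers ran from 4.50 to 4.58 in GCM LN18 arrays, from 4.52 to 4.56 in GCM U87-MG arrays and from 4.56 to 4.65 in control arrays. The part of these marker shifts in the results for iron genes was not tested. In these bulk cultures, fewer cells of a type and less RNA per cell cannot be told apart.

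Slc40a1 was the member that changed, and it was lower in both GCM groups. In its brighter probe set, 1417061_PM_at, the 3 GCM LN18 arrays read 7.19, 7.41 and 7.77, the 3 GCM U87-MG arrays 7.64, 8.39 and 7.82, and the 3 control arrays 10.09, 9.12 and 9.33. Every GCM array lay below every control array, whereas the arrays of the 2 media overlapped. The means were 7.46 ± 0.29 in GCM LN18, 7.95 ± 0.39 in GCM U87-MG and 9.51 ± 0.51 in control microglia (SD, n = 3 each). Slc40a1 lies on mouse chromosome 1 at 45908070 to 45926532 (GRCm38.p6, RefSeq), which is the span of the gene and not of the probes.

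In GCM LN18, Slc40a1 mRNA fell by 2.05 on the log2 scale (SE 0.27), a 4.15-fold decrease with a Benjamini-Hochberg adjusted p of 0.00449 from limma over all genes. In GCM U87-MG it fell by 1.56, a 2.95-fold decrease with an adjusted p of 0.0323. Both comparisons share the 3 control arrays. Each Slc40a1 decrease was the lowest log2 change among the 17097 genes in its comparison. Fits that left out 1 array were run without the replicate block. The LN18 call was retained in all 9 of them, with limma adjusted p between 0.00403 and 0.0251. The U87-MG call was retained in 5 of the 9, and was lost without control replicate 1 (0.0641), GCM U87-MG replicate 1 (0.127), GCM U87-MG replicate 3 (0.108) or GCM LN18 replicate 2 (0.0593).

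The deposited values have a property that bears on each of these p-values. In 100.0% of probe sets the mean over the 3 arrays of a replicate number was equal for the 3 numbers, within 1e-06, as it is once differences between replicate numbers have been taken out. Adding replicate number to the limma model as a block allows for this, with 4 residual degrees of freedom against 6. With it the Slc40a1 decrease kept its call in GCM LN18 (adjusted p = 0.0269, 95% confidence interval -2.72 to -1.39) and lost it in GCM U87-MG (adjusted p = 0.167, interval -2.23 to -0.90). All intervals given for the members come from this blocked fit, and each covers 1 gene alone.

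The second Slc40a1 probe set, 1448566_PM_at, showed the same order of groups. It read 5.55, 5.27 and 5.67 in the GCM LN18 arrays, 5.38, 6.24 and 5.67 in GCM U87-MG, and 7.56, 6.99 and 7.16 in control arrays. Again no GCM array reached a control array. Its decrease was 3.34-fold in GCM LN18 (adjusted p over all probe sets 0.00465, 0.0240 with the block) and 2.77-fold in GCM U87-MG (0.0230, and 0.113 with the block), from limma.

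**Figure D1:**
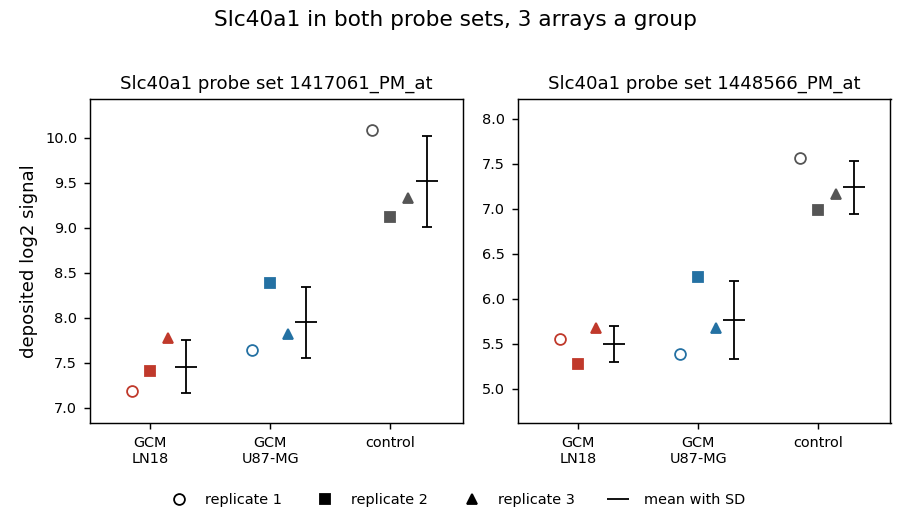
Deposited log2 signal of Slc40a1 in its 2 probe sets for the 3 arrays of GCM LN18, GCM U87-MG and control microglia. Symbols give the replicate number and bars the group mean with SD; all 6 GCM arrays lie below all 3 control arrays in both probe sets, and control replicate 1 is the highest array of each panel.

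The size of the Slc40a1 difference varied with the replicate number. In the brighter probe set, between arrays of the same number, GCM LN18 minus control was -2.89, -1.71 and -1.56 for replicates 1, 2 and 3. This left 13.5%, 30.6% and 34% of the control signal. GCM U87-MG minus control was -2.44, -0.73 and -1.51, which left 18.4%, 60.1% and 35.1%. All 6 differences were negative. Number 1 gave the largest drop in both media and GCM U87-MG replicate 2 the smallest. In the second probe set the differences were -2.01, -1.72 and -1.49 for GCM LN18, and -2.18, -0.74 and -1.49 for GCM U87-MG. Number 1 again gave the largest drop, but in GCM LN18 it stood less apart, with 24.9%, 30.4% and 35.5% of the control signal left. Without control replicate 1 the change in the brighter probe set was -1.77 in GCM LN18 (limma adjusted p = 0.00858) and -1.28 in GCM U87-MG (0.0641). Between media, Slc40a1 was lower by 0.49 in GCM LN18 than in GCM U87-MG, a 1.4-fold difference that did not pass the test (adjusted p = 0.504 from limma, interval -1.16 to 0.18).

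None of the other 7 measured members passed the test in either medium. Of the 8 measured members, 0 were higher and 1 was lower in GCM LN18, where 5.23% of all genes passed (0.877% with the block). The count in GCM U87-MG was 0 higher and 1 lower (0 with the block), where 1.51% of all genes passed (0.0468% with the block). Between GCM LN18 and GCM U87-MG no member passed in limma, nor did any at an unadjusted p under 0.05; of all genes 0.00585% passed, and 0% with the block. The median log2 change of the 8 members was -0.09 for GCM LN18 and -0.11 for GCM U87-MG, beside -0.00 over all genes in both.

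**Figure D2:**
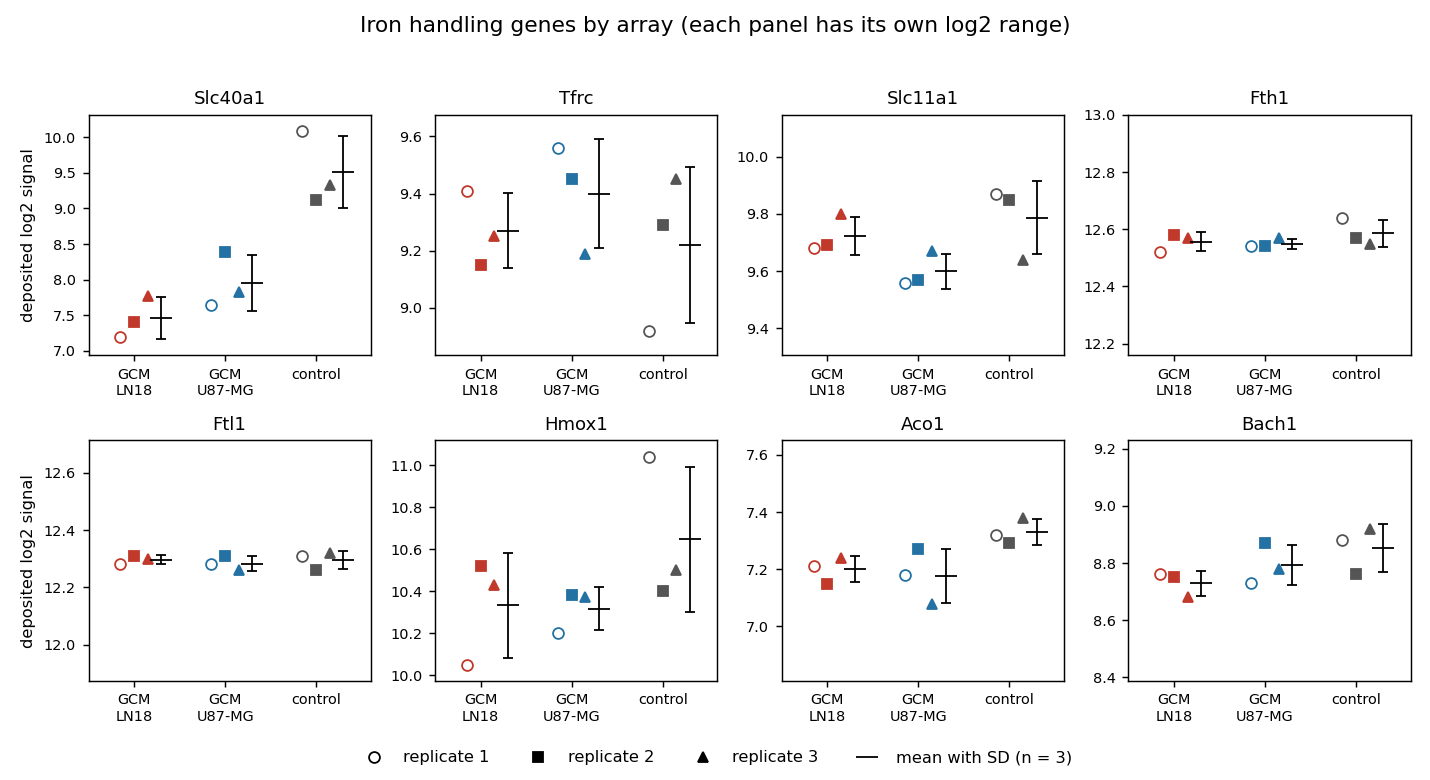
Deposited log2 signal of the 8 measured iron handling genes (brightest probe set each) in the arrays of GCM LN18, GCM U87-MG and control microglia, with the group mean and SD (n = 3). Slc40a1 stands apart between GCM and control, Fth1 and Ftl1 are flat near the top of the array range, and control replicate 1 is the highest Hmox1 array, at 11.04.

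Among the uptake genes, Tfrc encodes the transferrin receptor, which brings in transferrin-bound iron (chromosome 16, 32608896 to 32632794). It read 9.41, 9.15 and 9.25 in the GCM LN18 arrays, 9.56, 9.45 and 9.19 in GCM U87-MG, and 8.92, 9.29 and 9.45 in control arrays. The groups overlapped, and control replicate 1 was the lowest of the 9 arrays, opposite to its place for Slc40a1. The change was 0.05 in GCM LN18 (adjusted p = 0.889 from limma, interval -0.30 to 0.40), with the sign turned to -0.10 without control replicate 1. In GCM U87-MG it was 0.18 (0.556, interval -0.17 to 0.53). The other 2 Tfrc probe sets were dim, with group means of 4.18 and 3.55 in the GCM LN18 arrays, 4.21 and 3.70 in GCM U87-MG, and 4.19 and 3.41 in control arrays.

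Slc11a1, also called Nramp1, pumps divalent metal out of the phagosome in macrophages (chromosome 1, 74375014 to 74386057). It read 9.68, 9.69 and 9.80 in the GCM LN18 arrays, 9.56, 9.57 and 9.67 in GCM U87-MG, and 9.87, 9.85 and 9.64 in control arrays. Control replicate 3 lay among the GCM arrays, so neither medium was separated from control. The changes were -0.06 in GCM LN18 (adjusted p = 0.654 from limma) and -0.19 in GCM U87-MG (0.206, and 0.548 with the block, interval -0.37 to 0.00). The arrays of GCM LN18 did lie above those of GCM U87-MG, by 0.12 on average, without passing the test.

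Ferritin mRNA was even across the 9 arrays. Fth1, the heavy subunit that oxidises iron for storage (chromosome 19, 9980600 to 9985111), read 12.52, 12.58 and 12.57 in the GCM LN18 arrays, 12.54, 12.54 and 12.57 in GCM U87-MG, and 12.64, 12.57 and 12.55 in control arrays. Ftl1, the light subunit that helps nucleate the iron core (chromosome 7, 45457944 to 45459886), read 12.28, 12.31 and 12.30 in the GCM LN18 arrays, 12.28, 12.31 and 12.26 in GCM U87-MG, and 12.31, 12.26 and 12.32 in control arrays. The groups overlapped for both subunits. The Fth1 changes were -0.03 and -0.04 in GCM LN18 and GCM U87-MG, with intervals of -0.16 to 0.10 and -0.16 to 0.09. Those of Ftl1 were -0.00 and -0.02, with intervals of -0.12 to 0.12 and -0.14 to 0.10. Both genes were close to the highest signal of the table, 12.88, and whether the top of the range hid a difference was not tested. Ferritin is also set at translation, which mRNA arrays do not measure.

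Hmox1, haem oxygenase 1, frees iron from haem (chromosome 8, 75093618 to 75100593). It read 10.05, 10.52 and 10.43 in the GCM LN18 arrays, 10.20, 10.38 and 10.37 in GCM U87-MG, and 11.04, 10.40 and 10.50 in control arrays. Control replicate 1 stood above the other 2 control arrays, which themselves lay at 10.40 and 10.50, within or next to the GCM range. The change was -0.31 in GCM LN18 (limma adjusted p = 0.344, interval -0.74 to 0.11) and -0.33 in GCM U87-MG (0.358, interval -0.76 to 0.10). Without control replicate 1 these were -0.11 and -0.13.

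Aco1, the first iron regulatory protein and a cytosolic aconitase when it holds an iron-sulphur cluster (chromosome 4, 40143265 to 40199009), had GCM values just below those of control in its brighter probe set. It read 7.21, 7.15 and 7.24 in the GCM LN18 arrays, 7.18, 7.27 and 7.08 in GCM U87-MG, and 7.32, 7.29 and 7.38 in control arrays, with no overlap between GCM and control. The changes were -0.13 in GCM LN18 (limma adjusted p = 0.225) and -0.15 in GCM U87-MG (0.198). Counted this way, by arrays that did not overlap, 2 members were lower in GCM LN18 (Slc40a1 and Aco1), beside 23.9% of all genes separated in either direction. In GCM U87-MG 3 were lower (Slc40a1, Hmox1 and Aco1), beside 19.1% of all genes. A count of 2 of 8 was near the share of all genes, and 3 of 8 lay above it by fewer than 2 genes. The second Aco1 probe set was dim, with means of 2.96 in GCM LN18 and 2.95 in control arrays.

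Bach1, the haem-sensing repressor (chromosome 16, 87698954 to 87733346), read 8.76, 8.75 and 8.68 in the GCM LN18 arrays, 8.73, 8.87 and 8.78 in GCM U87-MG, and 8.88, 8.76 and 8.92 in control arrays. The groups overlapped at control replicate 2. The changes were -0.12 in GCM LN18 (adjusted p = 0.242 from limma) and -0.06 in GCM U87-MG (0.610). Its second probe set, 1449311_PM_at, had differences of 0.12 and -0.01, so the 2 probe sets differed in sign in GCM LN18, with neither past the test.

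**Figure D3:**
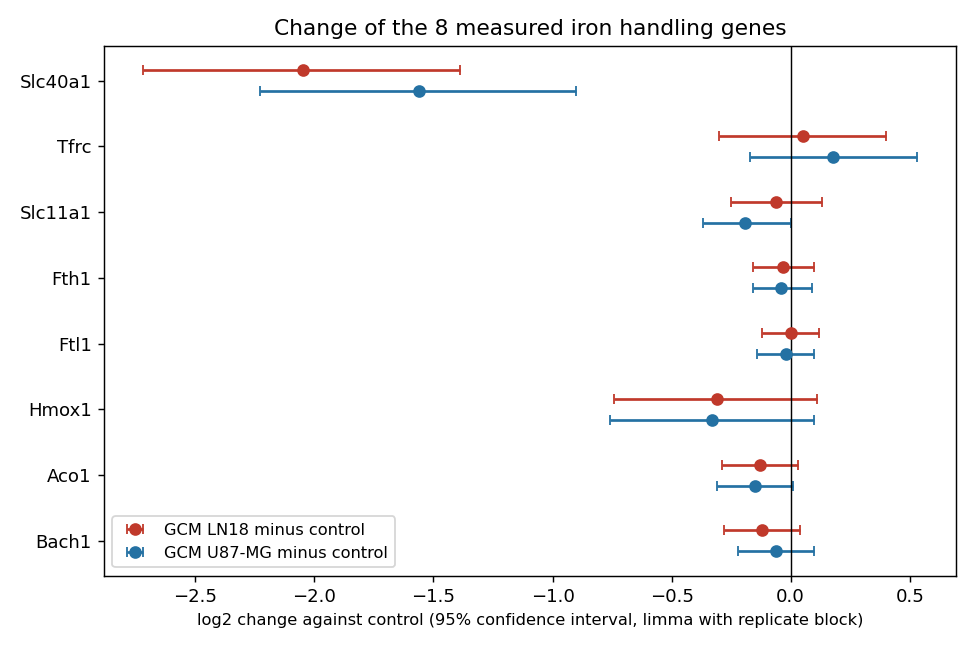
Log2 change against control of the 8 measured members for both media (GCM LN18 above GCM U87-MG), with 95% confidence intervals from limma with the replicate block. Slc40a1 lies at -2.05 and -1.56, and every other member lies between -0.33 and 0.18 with an interval that reaches 0.

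Hmox1 and other genes under Bach1 and Nrf2 differed most from control between arrays of replicate number 1. Gclm, the modifier subunit of the enzyme that starts glutathione synthesis, Slc7a11, the cystine carrier, Srxn1, which restores oxidised peroxiredoxins, and Slc48a1, which carries haem out of lysosomes, are named after their values were seen. GCM LN18 minus control was -0.99, 0.13 and -0.07 for Hmox1 in replicates 1, 2 and 3, -1.81, 0.20 and -0.11 for Gclm, and -1.34, 0.07 and 0.07 for Slc7a11. GCM U87-MG minus control was -0.84, -0.02 and -0.13 for Hmox1, -1.62, -0.18 and 0.07 for Gclm, and -1.18, 0.11 and 0.01 for Slc7a11. For these 3 genes replicates 2 and 3 were close to 0 in both media. Srxn1 and Slc48a1 were also below 0 in number 2. In replicates 1, 2 and 3 GCM LN18 minus control was -1.20, -0.41 and 0.04 for Srxn1 and -1.06, -0.40 and -0.03 for Slc48a1, and GCM U87-MG minus control was -1.11, -0.42 and 0.06 for Srxn1. Slc48a1 stood at -0.28 and -0.08 in replicates 2 and 3 of GCM U87-MG, again with its lowest difference in replicate 1.

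Over the 6 listed Bach1 and Nrf2 targets other than Hmox1, the median difference in number 1 was -1.07 for GCM LN18 and -0.96 for GCM U87-MG. In number 2 it was -0.25 and -0.14, and in number 3 -0.03 and 0.04. The median of all genes stayed between -0.01 and 0.00 in each number, but more of all genes also lay far below 0 in number 1. Of 17097 genes, 410, 172 and 104 lay below -0.5 in numbers 1, 2 and 3 for GCM LN18, and 358, 185 and 85 for GCM U87-MG. Of the 6 targets these counts were 5, 0 and 1 for GCM LN18 and 5, 0 and 0 for GCM U87-MG. Slc40a1 was also most negative in number 1, but its differences in numbers 2 and 3 stayed at -0.73 or lower. Because the means of the replicate numbers are equal, a high control array and low GCM arrays of number 1 cannot be told apart. Control replicate 1 had the lowest limma array weight of the 9, at 0.64 against 0.808 to 1.52, and the part of this array in the Hmox1 and target gene values was not tested beyond leaving it out.

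**Figure D4:**
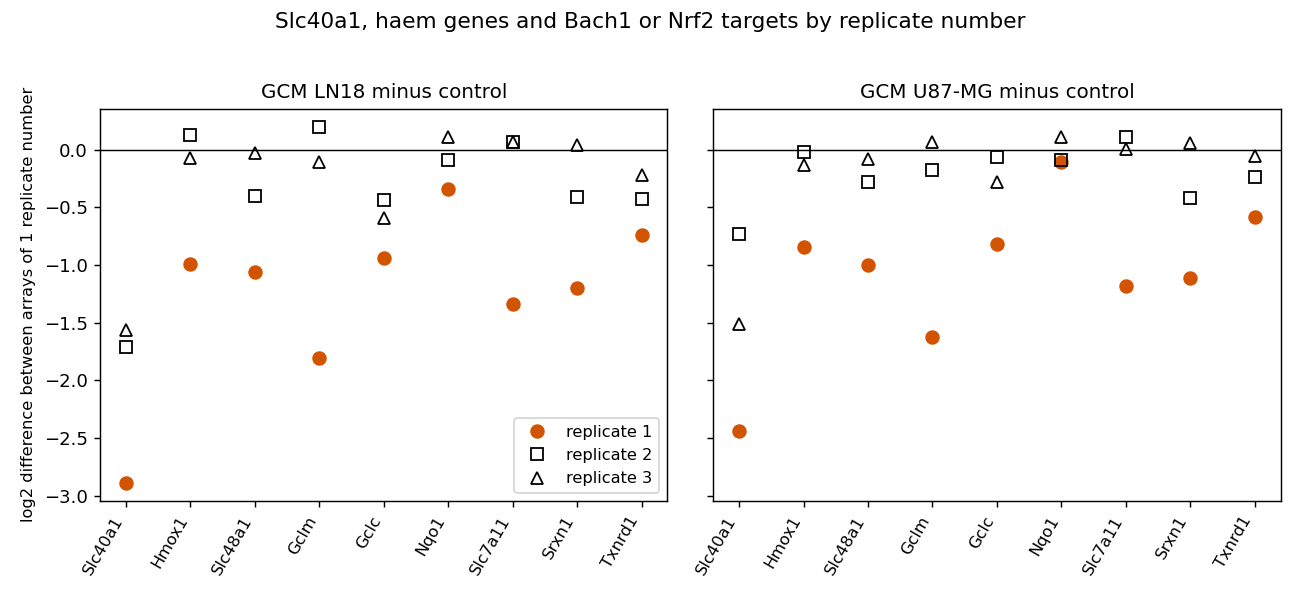
Log2 difference between the GCM array and the control array of the same replicate number, for Slc40a1, Hmox1, Slc48a1 and the 6 other Bach1 and Nrf2 targets, with GCM LN18 on the left and GCM U87-MG on the right. Number 1 is lowest for each gene in both panels; Slc40a1 is at -0.73 or lower in all 6 differences, whereas Hmox1, Gclm and Slc7a11 are near 0 in numbers 2 and 3.

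No measured regulator listed for Bach1 or Slc40a1 passed the test in either medium, 6 genes in all. With 6 genes a count of 0 says little, since 5.23% of all genes passed for LN18 medium and 1.51% for U87-MG medium. For 3 of the 6, every array given LN18 medium lay below every control array, beside 23.9% of all genes separated in either direction. With U87-MG medium this held for 1, beside 19.1%. An unadjusted limma p under 0.05 was found for 2 of the 6 with LN18 medium and 1 with U87-MG medium. Nfe2l2, which encodes Nrf2, averaged 9.79 in GCM LN18 and 9.97 in control microglia, a change of -0.18 that did not pass the test (adjusted p = 0.101 from limma), and its change was -0.02 in GCM U87-MG. Spic, needed for ferroportin expression in red pulp macrophages, was dim at 2.59 in GCM LN18, 2.51 in GCM U87-MG and 2.65 in control arrays. Hamp, which encodes the hormone hepcidin that removes ferroportin protein, was also dim, at 3.12, 3.25 and 3.18 in the same order, as was the ferroxidase gene Heph, at 2.05, 2.07 and 2.07.

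Of 72 other iron genes listed by role, 66 were measured. In GCM LN18 1 was higher and 6 were lower, which is 10.6% of those measured beside 5.23% of all genes, and with the replicate block 1 was higher and 0 were lower. At an unadjusted p under 0.05 with the block there were 14 of 66 in GCM LN18, beside 2091 of all 17097 genes. For GCM U87-MG the count was 2 higher and none lower, which is 3.03% beside 1.51% of all genes, and 0 with the block, where 12 of 66 had an unadjusted p under 0.05, beside 1560 of 17097. The median log2 change of the 66 was -0.04 for GCM LN18 and -0.03 for GCM U87-MG.

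Hfe was the 1 gene of the 66 that passed in both media. It encodes the haemochromatosis protein, which binds transferrin receptor 1 and, in hepatocytes, takes part in hepcidin control. It read 8.33, 8.34 and 8.28 in the GCM LN18 arrays, 8.23, 8.28 and 8.26 in GCM U87-MG, and 7.89, 7.83 and 7.91 in control arrays. Every GCM array lay above every control array, and the range within each group was narrow. Hfe rose by 0.44 in GCM LN18 (limma adjusted p = 9.35e-04, blocked 0.0214) and by 0.38 in GCM U87-MG (0.00433, and 0.0838 with the block). It kept both calls in all 9 fits that left out 1 array, which were run without the block.

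Lower in GCM LN18 were 6 genes of antioxidant defence, ferritin turnover, haem breakdown, iron release and mitochondrial transport. None of them passed with the block. Gclc, the catalytic subunit in glutathione synthesis, fell by 0.66 (limma adjusted p = 0.0116, blocked 0.0589), and unlike Gclm it was below control in each replicate number (-0.94, -0.44 and -0.59). Txnrd1, thioredoxin reductase 1, fell by 0.46 (0.0204, 0.0873 with the block). Ncoa4, the receptor that sends ferritin to the lysosome, fell by 0.45 (0.0325, 0.122 with the block). Mcoln1, a lysosomal channel that releases iron, fell by 0.28 (0.00906, 0.0837 with the block), Blvra, biliverdin reductase, by 0.26 (0.0245, 0.146) and Abcb10, a mitochondrial transporter of the haem pathway, by 0.24 (0.0407, 0.197).

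In GCM U87-MG these 6 genes had changes between -0.39 for Gclc and -0.17 for Blvra, and none passed. Mcoln1 came nearest, at -0.21 (limma adjusted p = 0.0503, blocked 0.334), with every GCM U87-MG array below every control array. A call in 1 medium alone is therefore not a difference between the media. Between the media none of the 66 passed in limma, and 8 had an unadjusted p under 0.05, a share like that of all genes (2052 of 17097). In the blocked model these were 1 of 66 and 865 of 17097. The LN18 calls of Gclc and Mcoln1 were retained in all 9 fits that left out 1 array, all run without the block. That of Txnrd1 was retained in 7 of these fits, those of Ncoa4 and Blvra in 4 each, and that of Abcb10 in 1. Tfr2, the second transferrin receptor, was higher in GCM U87-MG by 0.25 (limma adjusted p = 0.0484, blocked 0.304), at signals of 3.74 to 3.81 in GCM U87-MG and 3.45 to 3.58 in control arrays, which are dim, and its call was retained in 0 of those 9 fits.

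**Figure D5:**
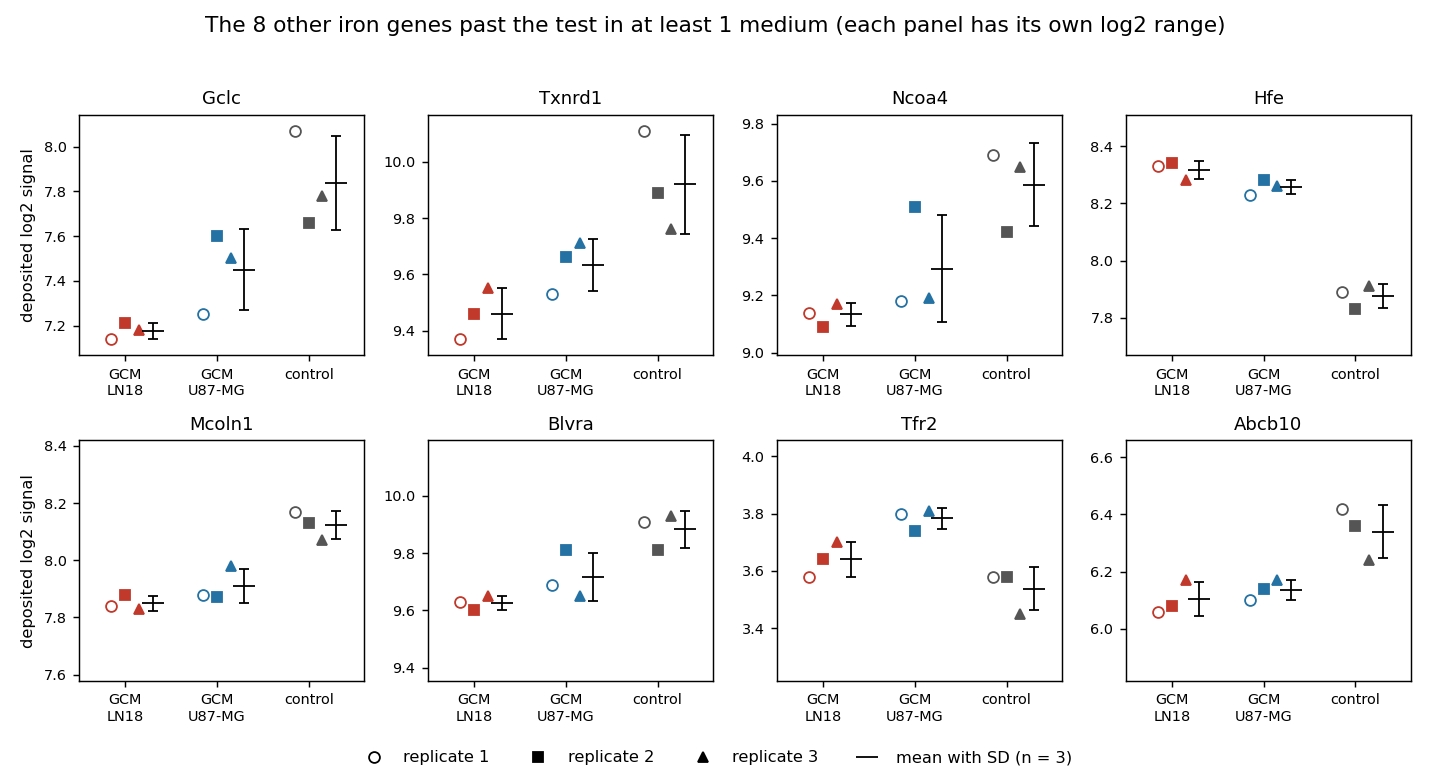
Deposited log2 signal of the 8 other iron genes past the test in at least 1 medium, in the arrays of GCM LN18, GCM U87-MG and control microglia, with the group mean and SD (n = 3). Hfe is higher in all 6 GCM arrays, at 8.23 to 8.34, than in control arrays, at 7.83 to 7.91.

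Promoter letters were searched because Bach1 and Nrf2 bind antioxidant response elements with the core TGACNNNGC. RefSeq windows of 250 bases before to 50 bases after a start (GRCm38.p6) were listed for 7 of the 10 members, Ireb2 among them, and not for Slc40a1, Hmox1 or Slc11a2. Among the 9 windows of those 7 genes, 0 held the core on either strand, beside 12.4% of 32851 windows of all genes. The letters of an iron responsive element are a C, 5 bases, then CAGTG. On the sense strand of the first 50 transcribed bases they were in 0 of these windows, beside 1.58% of windows of all genes. No base of the mRNA beyond those 50 was searched, so this count cannot show whether these mRNAs hold an element.

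Of the 8 other iron genes above, 7 had windows. Of these, 4 held the core in at least 1 window (Hfe, Txnrd1, Ncoa4 and Blvra), beside 14% of all genes with a window. Some of them, such as Txnrd1 with 3 windows, had more chances of a match than a gene with 1. The share of all genes was not matched for this, and the search was added after their values were seen. The 250 bases upstream are shown for Hfe and Txnrd1, a gene that rose and a gene that fell, with the match in capitals, each 5′ to 3′ on the strand of the gene. For Hfe they lie at chr13:23710855-23711104 on the minus strand, and the match begins 67 bases before the start. For Txnrd1, in 1 of its 3 windows, they lie at chr10:82858956-82859205 on the plus strand, and the match is to the core on the opposite strand, beginning 92 bases before the start.
Hfe: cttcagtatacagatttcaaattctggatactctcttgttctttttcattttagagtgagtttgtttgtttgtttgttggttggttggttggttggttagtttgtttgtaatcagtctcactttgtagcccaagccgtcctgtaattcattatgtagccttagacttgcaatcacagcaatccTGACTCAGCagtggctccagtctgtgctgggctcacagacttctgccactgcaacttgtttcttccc
Txnrd1: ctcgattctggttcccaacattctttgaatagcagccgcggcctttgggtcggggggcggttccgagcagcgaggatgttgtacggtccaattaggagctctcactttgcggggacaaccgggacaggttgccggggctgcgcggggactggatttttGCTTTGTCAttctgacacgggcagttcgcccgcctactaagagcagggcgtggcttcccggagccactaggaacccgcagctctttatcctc
A match is a description of letters and says nothing about binding.

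The genes whose 6 differences by replicate number lay closest to those of Slc40a1 were found by root mean square distance over all 17097 genes. They were Asns, asparagine synthetase, at 0.84 log2 units, Insig1, which restrains sterol synthesis, at 0.88, Tfec, a transcription factor of macrophages, at 0.88, Cxcl2, a chemokine, at 0.89 and Tnfaip2 at 0.93. The median distance of all genes was 1.94. The root mean square of the 6 Slc40a1 differences was also 1.94, which is the distance of a gene with no change. Insig1 averaged 6.28 in GCM LN18, 6.53 in GCM U87-MG and 7.55 in control arrays, and fell by 1.27 and 1.02 in the 2 media (adjusted p = 0.00420 and 0.0270 from limma; 0.0269 and 0.145 with the block). Asns, the closest, had changes of -1.26 and -1.35 that did not pass (0.0671 and 0.0906). Tfec, Cxcl2 and Tnfaip2 passed in GCM LN18 (limma adjusted p = 0.0272, 0.0233 and 0.0160), but not with the block (0.0913, 0.0825 and 0.0650). None of these 3 passed in GCM U87-MG.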

How the data were processed

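The 9 Affymetrix MG-430 PM arrays analysed were 3 each of GCM LN18, GCM U87-MG and control microglia, grouped by sample title. The deposited log2 values were made by the authors, with limma named in the submitters' processing notes; the study's methods name RMA for raw microarray data in a passage on public data sets, and whether this covers these 9 arrays is not stated. Of 45141 probe sets, 104 controls were left out, 28898 had 1 gene symbol, 551 several and 15588 were unnamed here; 28689 were matched by gene ID to a current RefSeq symbol. The brightest probe set stood for each of 17097 genes. Differences were tested with limma 3.58.1 (R 4.3.3, Python 3.11.15), by lmFit and eBayes, two-sided, with 1 mean per group over 9 arrays. The p-values were Benjamini-Hochberg adjusted over all genes, at a threshold of 0.05. Both fits were run on simulated data, but only the fit with the replicate block had to meet set limits there. P-values measure the spread between arrays of a group in the deposited values, where the means of the replicate numbers are equal. They do not measure the full spread between cultures. The fit without the block counts 6 residual degrees of freedom against 4 with it, and the number of arrays limits the precision.

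The labels share replicate numbers, without saying that a number marks 1 culture. Deviations of same-numbered arrays correlated at -0.7 to -0.19. Equal means per number make these deviations cancel out, which by itself makes such correlations negative on the whole. They therefore cannot show whether a number marks 1 culture. The equal means are a reason to block, and blocked values are given. The members and lists were chosen with earlier results of these data known. Other iron genes past the test in either medium are named, with the 5 genes most like Slc40a1. Alternatives were the replicate block, quantile normalization, median centring, array weights, trended and robust variance, a filter on dim genes, the mean of probe sets, all probe sets, only the groups compared, and leaving out each array. Each alternative other than the replicate block was fitted without it.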

Additional observations from a re-analysis of the deposited data

How the results depend on the processing

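Of 17097 genes, 894 passed in GCM LN18, 259 in GCM U87-MG and 1 between the media; with the replicate block 150, 8 and 0 passed. For GCM U87-MG this count was 171 adjusted over all probe sets, 45 with only the groups compared and 153 with array weights. Between the media it was 0 with trended and robust variance, over all probe sets and with only the groups compared, and 2 with quantile normalization and with array weights. Leaving out 1 array gave 337 to 856 genes in GCM LN18, 32 to 229 in GCM U87-MG and 0 to 0 between the media. The member count for GCM U87-MG, 1, was 0 with the replicate block and with only the groups compared, where the Slc40a1 change of -1.56 had an adjusted p of 0.167 and 0.0839; without 1 array it was 0 to 1, and the Slc40a1 change -1.78 to -1.28. The LN18 change of Slc40a1 ranged from -2.25 to -1.77 and stayed past the test. Of the 66 other iron genes, the count in GCM LN18, 7, was 1 with the block and 3 to 6 without 1 array. It was 8 with the filter on dim genes, with the mean of probe sets and with quantile normalization. In GCM U87-MG the count, 2, was 0 with the block and 3 with median centring. It was 1 with trended variance, over all probe sets, with only the groups compared, with array weights and without any 1 array (range 1 to 1). The block changed no member's call other than that of Slc40a1 in GCM U87-MG.

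Signs that turned were all of values that did not pass. Tfrc in GCM LN18 was -0.01 with array weights and -0.10 to 0.16 without 1 array. Ftl1 in GCM LN18 was 0.02 with quantile normalization, 0.00 with array weights and -0.02 to 0.01 without 1 array. GCM LN18 minus GCM U87-MG ranged without 1 array from -0.00 to 0.03 for Fth1, -0.08 to 0.16 for Hmox1 and -0.02 to 0.07 for Aco1, and with the mean of probe sets was -0.00 for Aco1 and 0.03 for Bach1. The causes were not tested. Where 1 group was left with fewer arrays, it was assumed to vary like the others. The dim signals of Tfr2, Hamp, Heph and Spic, and the near-maximal signals of Fth1 and Ftl1, limit what these arrays can show.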
